A study of Mus musculus with 6 samples.

Results

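The microRNAs miR-23b, miR-24, miR-27a and miR-27b were read in whole mouse aortas, as the 4 assays with exactly these names, star strands left out, among 517 microRNA assays. All 6 mice were male and carried LysM-Cre on an Apoe–/– background, and they were fed a fat-rich diet (21% crude fat) for 12 weeks from 6 to 8 weeks of age. In 3 mice both Dicer alleles were floxed (Dicer_KO), and 3 littermates had wild-type Dicer with the same Cre (Dicer_WT). LysM-Cre is active in macrophages, monocytes and neutrophils, so other cells of the vessel wall keep Dicer, and in which cells it was lost was not measured. The labels name both aorta and macrophage, and microRNAs abundant in other cells of the vessel were read beside the myeloid ones: the smooth muscle miR-145 at Ct 11.5 to 12.7, the endothelial miR-126-3p at 15.9 to 16.5 and the myeloid miR-223 at 19.2 to 21.95. Ct is the PCR cycle at which product crosses a threshold, and 1 cycle less stands for about 2 times the RNA. Genotypes were compared within an assay or by ratios of assays. Since assays differ in efficiency, Ct values set beside each other across assays give only a rough order of amount. Dicer mRNA was not measured.

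A microRNA pairs through its seed, bases 2 to 8, with target messages and lowers their output, and Dicer cuts it from a hairpin together with a star strand that is usually degraded. The genes of miR-23, miR-27 and miR-24 stand side by side and are transcribed together, in a pair of paralogous clusters. In vessels, miR-23 and miR-27 are known to favour angiogenic sprouting, miR-27 to restrain lipid genes such as Abca1 and Pparg, and miR-24 to limit the matrix protease Mmp14 in plaque macrophages. In the RefSeq microRNA table (GRCm38.p6), Mir23a, Mir27a and Mir24-2 lie within 404 bases at chr8:84208518-84208921 on the plus strand, inside no other annotated gene. Mir23b, Mir27b and Mir24-1 lie within 792 bases at chr13:63300484-63301275 on the plus strand, inside the span of the protein-coding gene Aopep. Thus miR-27a belongs to the first cluster, miR-23b and miR-27b to the second, and miR-24 to both.

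The mature sequences are shown because they decide what each assay can tell apart. RefSeq held 3 of the 4 members, and miR-23b is named only. Capitals mark the seed, and miR-23a, the neighbour of miR-27a, is added for its seed.
miR-27a: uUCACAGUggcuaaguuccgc
miR-27b: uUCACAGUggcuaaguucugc
miR-24: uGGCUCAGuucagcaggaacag
miR-23a: aUCACAUUgccagggauuucc
The miR-27a and miR-27b strands shared their seed and differed by the single substitution C19U, counted from the 5′ end of miR-27a, at base 3 from the 3′ end. The seed of miR-23a had its first 5 bases in common with that of miR-27a, and miR-24 had a seed of its own.

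The same miR-24 comes from both clusters, shown in capitals within its hairpins, so its assay reads the sum of both.
Mir24-2: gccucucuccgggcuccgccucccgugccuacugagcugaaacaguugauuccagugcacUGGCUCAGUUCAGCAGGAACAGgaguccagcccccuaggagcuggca
Mir24-1: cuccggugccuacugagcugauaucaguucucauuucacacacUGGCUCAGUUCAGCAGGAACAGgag
The star strands, on the opposite arm, differ between the hairpins and had assays of their own, on the second of 2 array cards. They are printed because each strand comes from 1 cluster, with bases 2 to 8 in capitals.
miR-24-2*: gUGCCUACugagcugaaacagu
miR-24-1*: gUGCCUACugagcugauaucagu
miR-27a*: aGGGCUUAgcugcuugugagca
miR-27b*: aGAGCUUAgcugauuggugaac
The miR-24 star strands shared their first 16 bases and the miR-27 star strands differed at 8 of 22 positions. Whether a star strand assay also reads the strand of the other cluster was not tested.

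All 4 members gave product early in every aorta. The mean Ct of miR-24, the second lowest of all 517 assays, was 14.0 ± 0.270 (SD, n = 3) in the Dicer_WT group and 14.6 ± 0.463 (SD, n = 3) in the Dicer_KO group. miR-27b was at 18.9 ± 0.330 and 19.7 ± 0.421, miR-27a at 19.6 ± 0.343 and 20.3 ± 0.422, and miR-23b at 20.7 ± 0.323 and 21.5 ± 0.467. Every member therefore stood later in Dicer_KO aortas on average, by 0.657 to 0.832 cycles before any normalization.

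The comparison addressed how far microRNA levels of the diseased vessel rest on Dicer in cells with LysM-Cre. On the authors' scale the Dicer_WT geometric mean of an assay is 1 and reference RNAs of the same aorta are set equal. There the 4 members stood at 0.657 to 0.741 of their Dicer_WT level in Dicer_KO aortas, and none passed the test. With U87 and Y1 as the reference, however, the log2 fold changes of miR-24, miR-27a and miR-27b were above 0. After quantile normalization that of miR-27a was above 0 and that of miR-24 was 0, meaning no change. In whole vessels, fewer cells of a type and less RNA per cell cannot be told apart.

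The relative quantity of miR-23b, of the Aopep cluster, was 1.10, 1.03 and 0.885 in Dicer_WT replicates 1 to 3 and 0.840, 0.557 and 0.606 in Dicer_KO replicates 1 to 3. Every Dicer_KO aorta lay below every Dicer_WT aorta, with replicate 1 of Dicer_KO close to the lowest Dicer_WT aorta. The log2 fold change was -0.61 ± 0.225 (SE, adjusted p = 0.156 by limma), with a 95% interval of -1.16 to -0.05.

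miR-27b, the neighbour of miR-23b, was at 1.11, 1.00 and 0.896 in Dicer_WT and 0.876, 0.626 and 0.646 in Dicer_KO aortas. The groups parted by a narrow margin, again at Dicer_KO replicate 1 and Dicer_WT replicate 3. Its log2 fold change was -0.50 ± 0.211 (SE, adjusted p = 0.199 by limma), with an interval of -1.02 to 0.02.

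miR-27a, of the chromosome 8 cluster, was at 1.12, 1.01 and 0.882 in Dicer_WT and 0.902, 0.650 and 0.656 in Dicer_KO aortas. Here Dicer_KO replicate 1 stood above Dicer_WT replicate 3, so the groups overlapped. The log2 fold change was -0.46 ± 0.214 (SE, adjusted p = 0.226 by limma), with an interval of -0.99 to 0.07.

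miR-24, from both clusters, was at 1.04, 1.07 and 0.901 in Dicer_WT and 0.950, 0.683 and 0.628 in Dicer_KO aortas. The groups overlapped at the same pair of aortas. The log2 fold change was -0.43 ± 0.222 (SE, adjusted p = 0.229 by limma), with an interval of -0.98 to 0.11.

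**Figure D1:**
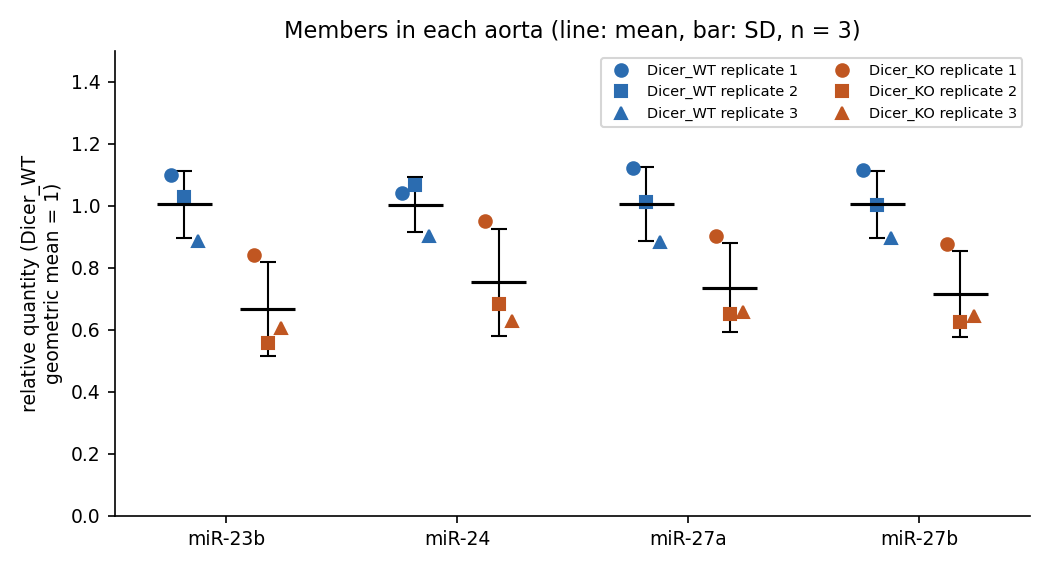
Relative quantity of each member (linear, Dicer_WT geometric mean 1) in each of 6 aortas, with the group mean (line) and SD (bar, n = 3). Dicer_KO replicate 1 sits between 0.840 and 0.950, near the Dicer_WT aortas, and the other Dicer_KO aortas between 0.557 and 0.683.

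Dicer_KO replicate 1 was the highest Dicer_KO aorta for all 4 members. Their median log2 value was -0.17 there and -0.65 in each of the other Dicer_KO aortas, against 0.15, 0.03 and -0.17 in the Dicer_WT aortas. The median of the 217 first-card assays detected in every aorta had a like order, with -0.23, -0.45 and -0.62 in Dicer_KO replicates 1 to 3 and 0.092, 0.079 and -0.16 in the Dicer_WT aortas. Relative to it the members' median was 0.062, -0.20 and -0.028 in the Dicer_KO aortas and 0.054, -0.050 and -0.011 in the Dicer_WT aortas, so that Dicer_KO replicate 2 was then the lowest aorta. Without Dicer_KO replicate 1 the members' log2 fold changes were -0.78 for miR-23b, -0.65 for miR-27b, -0.62 for miR-27a and -0.61 for miR-24, and limma's adjusted p-values came to 0.0511 to 0.0756. In that setting 55 assays of the whole table were called lower and 9 higher, against 7 and 0 with all aortas.

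The whole table bore on these values. Of 377 assays tested, 7 (1.86%) were called lower (limma, adjusted p under 0.05) and 295 (78.2%) had a log2 fold change below 0, with a median of -0.42. Among the 4 members 0 were called in either direction, 4 were below 0 and the median was -0.48. Without adjustment for multiple tests, limma placed 1 of the 4 members (miR-23b) as lower at the 0.05 level and 0 as higher, beside 24.4% and 2.39% of all assays. Every Dicer_KO aorta lay below every Dicer_WT aorta for 2 of 4 members and above for 0, against 32.6% and 2.39% of all assays. The members' median and counts thus lay near those of the whole table. After each aorta was centred on the median of the 217 first-card assays detected in all 6 aortas, the Dicer_KO mean minus the Dicer_WT mean was -0.17 for miR-23b, -0.06 for miR-27b, -0.02 for miR-27a and 0.0069 for miR-24 (log2).

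**Figure D2:**
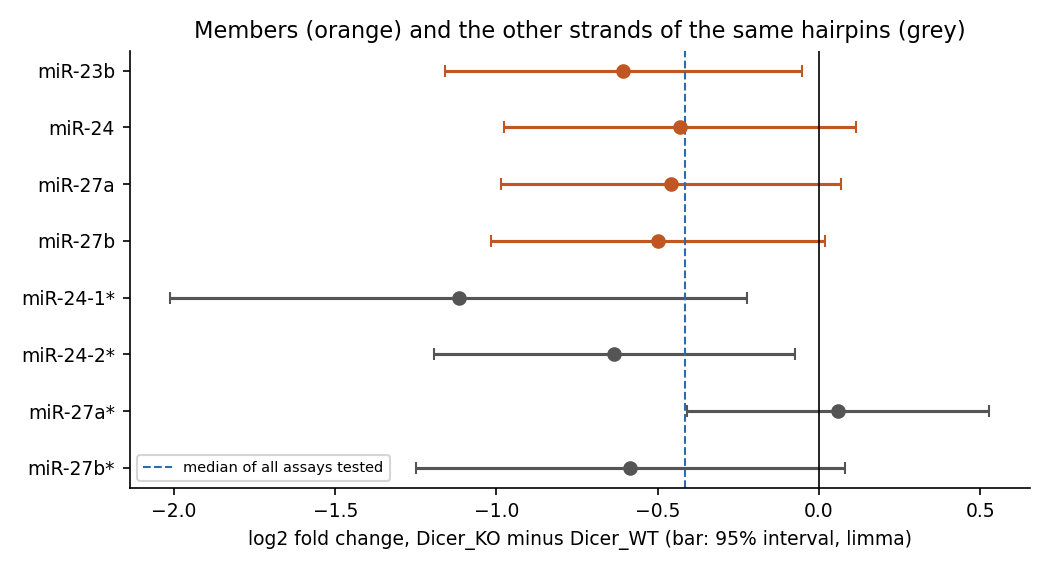
Log2 fold change with its 95% limma interval (n = 3 each) for the 4 members and the 4 star strands, beside the median of all 377 assays tested (dashed, -0.42) on the authors' scale. The members crowd around that median, while miR-24-1* at -1.12 and miR-27a* at 0.058 lie on either side of it; relative to U87 and Y1 the values of miR-24, miR-27a, miR-27b, miR-24-2* and miR-27b* turn above 0, and miR-27a* ranges from -0.19 relative to U6 alone to 0.70 relative to U87 and Y1.

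Size and sign followed the reference RNA. Relative to U6 alone the members' median was -0.64, without normalization -0.70, and relative to all 6 control RNAs -0.27. It was -0.11 with mean centring, -0.051 after quantile normalization and 0.032 relative to U87 and Y1. The median of all assays moved alongside, from -0.64 without normalization to 0.16 relative to U87 and Y1. On the authors' scale the difference between genotypes was -0.71 for Y1, -0.44 for U87, -0.13 for snoRNA135, -0.073 for snoRNA429, -0.038 for snoRNA202 and 0.21 for U6. None of these 6 control RNAs passed a test (exact permutation p = 0.1 for U87, the smallest that 3 against 3 can give, and 0.2 to 0.7 for the others). miR-23b was the only member below 0 in all these settings, with the value nearest to 0, -0.095, relative to U87 and Y1 together; it was -0.056 relative to Y1 alone.

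**Figure D3:**
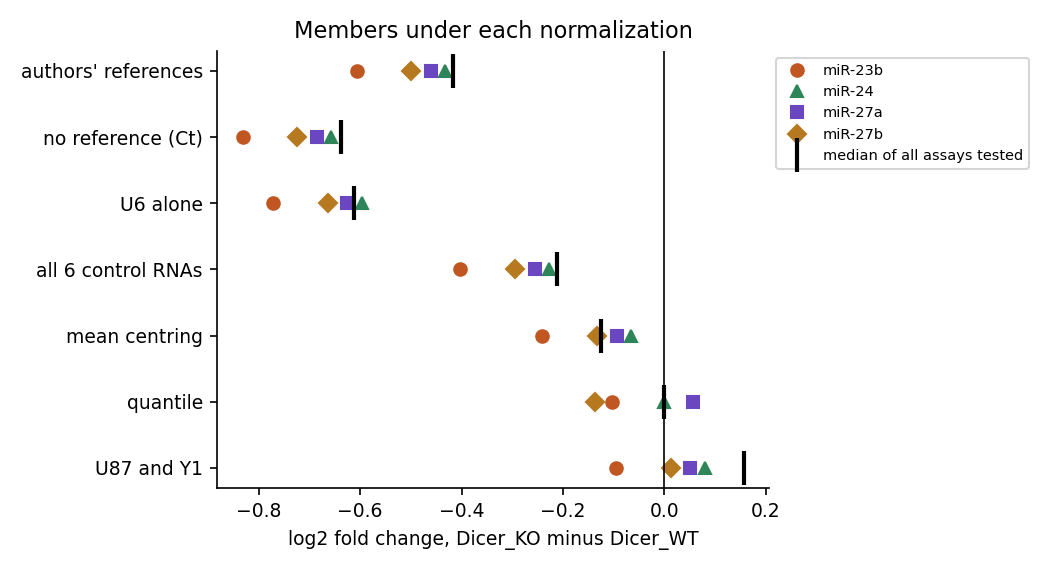
Log2 fold change of each member under 7 normalizations, with the median of all assays tested as a vertical tick. Members and median move together, from a members' median of -0.70 without reference to 0.032 relative to U87 and Y1, and miR-23b lies below the median of all assays in every row.

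Ratios between members within an aorta do not depend on the reference RNAs, since all 4 assays stood on the first card. In the Ct of miR-27a minus that of miR-27b, the Dicer_WT aortas gave 0.696, 0.687 and 0.727 cycles and the Dicer_KO aortas 0.662, 0.651 and 0.681. The difference thus spanned 0.076 cycles over all 6 aortas, the smallest span of all 23436 pairs of first-card assays detected in all aortas, whose median span was 1.28 cycles. The next smallest was 0.086 cycles, between miR-106a and miR-17. Assays outside the clusters came close to members too, at 0.092 cycles for miR-136 with miR-27a and 0.11 for miR-361 with miR-27b. The 5 other pairs of members spanned 0.18 to 0.371 cycles, and between 0.119% and 2.43% of all pairs spanned less. Among the 2556 pairs with both mean Ct values under 22, a bound set after the values were seen, 0 pairs spanned less than miR-27a with miR-27b and 0.352% to 7.98% less than the other pairs of members. miR-27a and miR-27b come from different chromosomes but differ at 1 base, and whether each assay also reads the other microRNA was not tested. These spans are a description, as the pairs share assays and aortas.

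**Figure D4:**
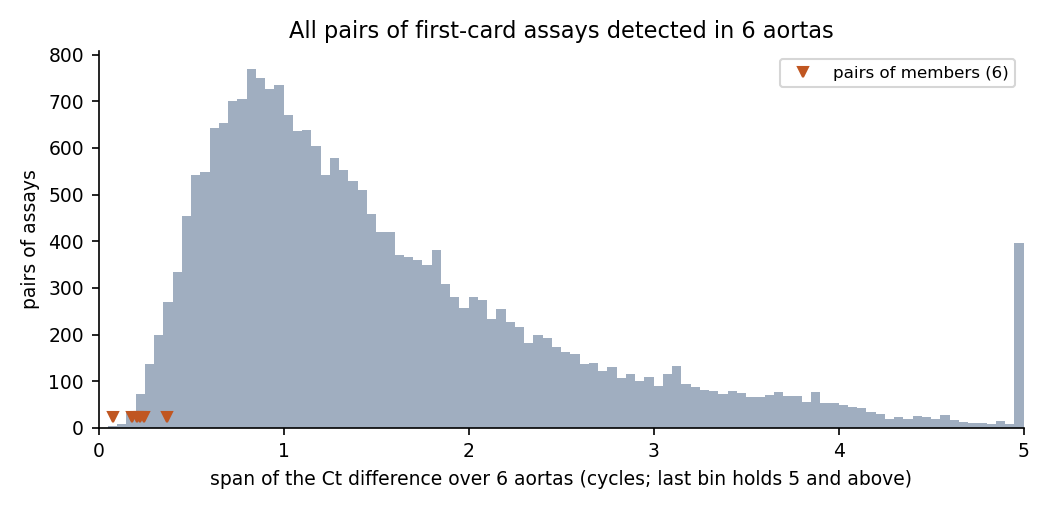
Histogram of the span, over 6 aortas, of the Ct difference between 2 assays, for all 23436 pairs of first-card assays detected in every aorta, with the 6 pairs of members as triangles. The members lie at the left edge, from 0.076 (miR-27a with miR-27b) to 0.371 cycles (miR-23b with miR-24), against a median of 1.28.

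The ratio of miR-27a to miR-27b nevertheless parted the genotypes, by 0.039 on the log2 scale, with SDs of 0.021 in Dicer_WT and 0.015 in Dicer_KO aortas (exact permutation p = 0.1, Benjamini-Hochberg adjusted 0.15 over 6 pairs). miR-23b lay lower relative to each other member in all 3 Dicer_KO aortas. Its log2 ratio differed by -0.17 to miR-24 (SD 0.067 and 0.12), by -0.15 to miR-27a (SD 0.026 and 0.066) and by -0.11 to miR-27b (SD 0.034 and 0.056), each with an exact permutation p = 0.1 and adjusted 0.15. The largest of these was -0.12 without Dicer_KO replicate 2, the aorta with the lowest miR-23b. The ratios of miR-24 to miR-27a and to miR-27b overlapped between genotypes, at 0.028 and 0.067 (exact permutation p = 0.6 and 0.5, both adjusted 0.6). With 1 aorta left out they ranged from -0.024 to 0.074 and from 0.018 to 0.12, the lowest without Dicer_WT replicate 1 and the highest without Dicer_KO replicate 3. In all, 4 of 6 member ratios did not overlap between genotypes, beside 31.3% of all first-card pairs. Among these 4, the margin was narrow for miR-27a to miR-27b, with 0.687 cycles in Dicer_WT replicate 2 and 0.681 in Dicer_KO replicate 3. miR-23b to miR-24 parted least, with Ct differences of 6.749 in Dicer_WT replicate 2 and 6.75 in Dicer_KO replicate 3. None of the 6 ratios could pass a threshold of 0.05 with 3 aortas a group.

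**Figure D5:**
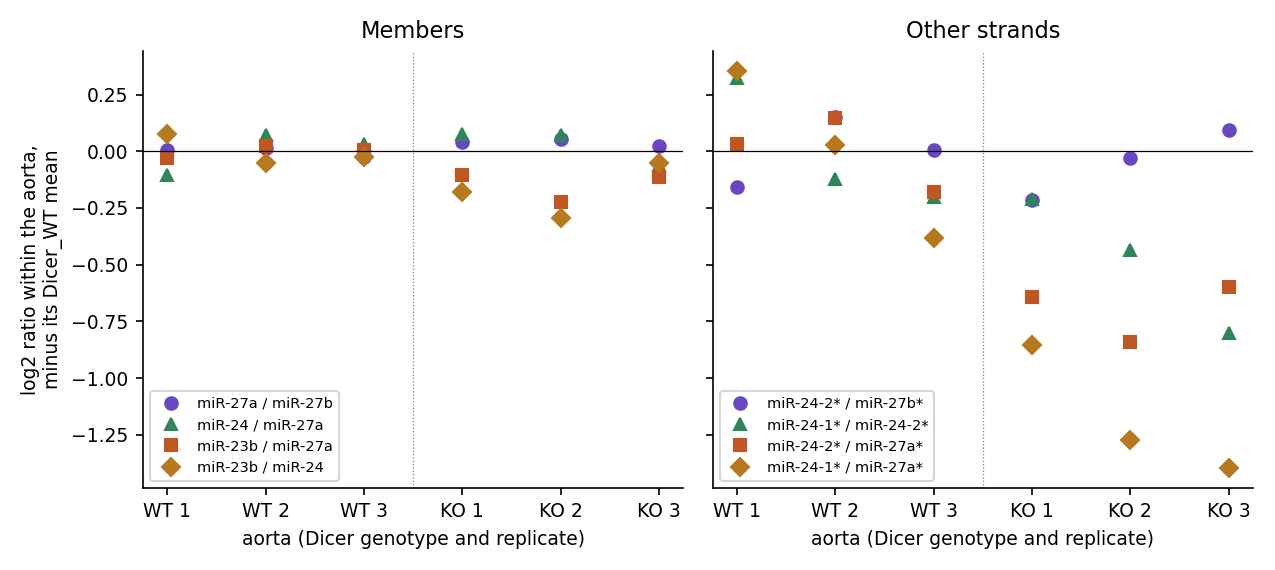
Log2 ratio of 2 assays within each aorta, minus its mean in Dicer_WT aortas, for pairs of members (left) and pairs of star strands (right), with Dicer_WT and Dicer_KO replicates along the axis. The ratio of miR-23b to miR-24 differs by -0.17 on average in Dicer_KO aortas and that of miR-27a to miR-27b by 0.039, whereas the ratio of miR-24-1* to miR-27a* differs by -1.18.

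The star strands lay further apart from each other in log2 fold change than the members did. In Dicer_WT aortas their mean Ct was 20.5 for miR-24-2*, 24.0 for miR-27a*, 24.8 for miR-27b* and 26.7 for miR-24-1*. Whether the later Ct of most of them, or the other card, bears on this spread was not tested. Of these 4 assays 0 were called, beside 1.86% of all assays called lower. On the authors' scale 3 of 4 lay below 0 (78.2% of all assays) and 2 of 4 were lower without overlap (32.6% of all assays), so these counts lay near those of the whole table. Of the 3 below 0, 2, miR-24-2* and miR-27b*, turned to 0.0042 and 0.054 when set against U87 and Y1. miR-24-1*, from the Aopep cluster, was at 1.40, 1.06 and 0.675 in Dicer_WT and 0.636, 0.448 and 0.344 in Dicer_KO aortas. All Dicer_KO values lay below all Dicer_WT values, but the Dicer_WT aortas themselves spread widely. Its log2 fold change was -1.12 ± 0.363 (SE, adjusted p = 0.133 by limma).

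miR-24-2*, from the chromosome 8 cluster, was at 1.12, 1.15 and 0.777 in Dicer_WT and 0.737, 0.605 and 0.599 in Dicer_KO aortas. Its log2 fold change came to -0.64 ± 0.227 (SE, adjusted p = 0.148 by limma). The groups did not overlap here either. miR-27b* was at 1.25, 1.04 and 0.773 against 0.855, 0.617 and 0.562, with overlapping groups and a log2 fold change of -0.58 ± 0.270 (SE, adjusted p = 0.225 by limma).

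miR-27a* differed from these. It was at 1.10, 1.04 and 0.879 in Dicer_WT and 1.15, 1.08 and 0.905 in Dicer_KO aortas, which overlapped fully. The log2 fold change was 0.058 ± 0.190 (SE, adjusted p = 0.816 by limma), with an interval of -0.41 to 0.53, but the value followed the setting in both directions. It was 0.70 when set against U87 and Y1, 0.49 after quantile normalization, 0.27 against all 6 control RNAs and 0.25 with mean centring, and it turned to -0.19 against U6 alone, -0.13 without normalization, -0.035 without Dicer_WT replicate 3 and -0.015 without Dicer_KO replicate 1. Values were also centred on the median of the second-card assays detected in all aortas, which itself differed by -0.32 between genotypes (log2). miR-27a* then stood at 0.026, -0.051 and 0.025 in Dicer_WT and 0.377, 0.379 and 0.376 in Dicer_KO aortas. Its groups did not overlap, with a difference of 0.38 (exact permutation p = 0.1). So centred, miR-24-1* at -0.80 and miR-24-2* at -0.32 did not overlap either, while miR-27b* at -0.27 did. The share of all second-card assays without overlap on this scale was not counted. In unnormalized cycles miR-27a* stood 0.126 later in Dicer_KO aortas and its partner strand miR-27a, from the same hairpin, 0.685 later. The log2 ratio of star to partner strand differed by 0.52 for miR-27a, -0.09 for miR-27b, -0.69 for miR-24-1* over miR-24 and -0.20 for miR-24-2* over miR-24 (exact permutation p = 0.1, 0.5, 0.1 and 0.3, adjusted 0.2, 0.5, 0.2 and 0.4 over 4 ratios). These 4 ratios set assays of different cards against each other, each relative to the references of its own card.

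Ratios of star strands to each other, all on the second card and chosen after the values were seen, need no reference. The Ct of miR-27a* minus that of miR-27b* was -0.640, -0.830 and -1.01 cycles in Dicer_WT and -1.26, -1.64 and -1.52 in Dicer_KO aortas. Every Dicer_KO aorta thus held more miR-27a* for its miR-27b* than any Dicer_WT aorta, by 0.64 on the log2 scale (SD 0.19 in each group, exact permutation p = 0.1, adjusted 0.12 over 6 ratios). Relative to miR-27a*, miR-24-2* from the same cluster differed by -0.69 and miR-24-1* by -1.18 (exact permutation p = 0.1 and adjusted 0.12 each). miR-24-1* differed by -0.48 from miR-24-2* and by -0.53 from miR-27b* (likewise exact permutation p = 0.1, adjusted 0.12), the former at -0.32 without Dicer_WT replicate 1. Only the ratio of miR-24-2* to miR-27b* overlapped, at -0.05 (exact permutation p = 0.7), and it ranged from -0.13 without Dicer_WT replicate 1 to 0.031 without Dicer_KO replicate 1. So 5 of 6 star ratios did not overlap between genotypes, beside 21.2% of all second-card pairs. Leaving out 1 aorta could not turn the direction of these 5, as their groups did not overlap.

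miR-23a, whose strand carries the seed shown above, gave Ct 19.9, 20.4 and 20.3 in Dicer_WT aortas and 20.4, 40 and 20.8 in Dicer_KO aortas, where 40 means no product. In Dicer_KO replicate 2, the aorta of the silent well, miR-27a from the same cluster was read at 20.6 and miR-24-2* at 21.4. Of all assays, 16 were silent in exactly 1 aorta, and 2 of these had their other 5 values below Ct 25, miR-23a and let-7f*. With the silent well set to Ct 35 the log2 fold change of miR-23a was -4.96 ± 3.92 (SE, adjusted p = 0.378 by limma), and over the 2 measured Dicer_KO aortas it was -0.22 (adjusted p = 0.496 by limma). The authors' deposited table gives a fold of 0.574 for miR-23a, a ratio of arithmetic means in which the silent well enters as measured, and 0.665, 0.752, 0.732 and 0.713 for miR-23b, miR-24, miR-27a and miR-27b.

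Assays with related seeds were those that hold bases 2 to 7 of a member at the same place or moved by 1 base. miR-128a, matched to miR-128-3p in RefSeq, carries the miR-27 seed moved by 1 base and shares a run of 8 bases with miR-27a, and miR-673-5p shares bases 2 to 7 with it.
miR-128a: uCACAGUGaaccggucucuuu
miR-673-5p: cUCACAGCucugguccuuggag
Neither passed the test, with log2 fold changes of -0.60 ± 0.167 for miR-128a (SE, adjusted p = 0.101 by limma, groups not overlapping) and -0.22 ± 0.288 for miR-673-5p (adjusted p = 0.576 by limma).

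The 5 assays outside the clusters whose pattern over the 6 aortas was most like the members' mean, after median centring, were miR-467a (Pearson r = 0.98), miR-361 (0.97), miR-369-3p (0.91), miR-7a* (0.91) and miR-22 (0.90). The members themselves correlated with their own mean at 0.97 for miR-27b, 0.95 for miR-27a, 0.95 for miR-23b and 0.74 for miR-24. With 6 points that share aortas and centring, and the highest of many chosen, these values are a description.

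The marker lists of the vessel's cell types were set beside the members, and their counts beside those of all assays, of which 78.2% lay below 0 and 32.6% were lower without overlap. Of 9 myeloid microRNAs, 9 lay below 0 and 6 did not overlap between genotypes, but their log2 fold changes were uneven, with a median of -0.93. The lowest was miR-147 at -3.67. miR-142-5p at -0.088 and miR-142-3p at -0.074 overlapped between genotypes and lay above the median of all assays, -0.42. The list mean, which includes miR-147, was -0.46 to 0.28 in Dicer_WT and -1.45 to -0.93 in Dicer_KO aortas (log2, authors' scale). The muscle list held the smooth muscle pair miR-143 and miR-145, which did not overlap between genotypes, and miR-1, miR-133a and miR-133b, best known from striated muscle, which did. All 5 were below 0, with a list mean of -0.04 to 0.026 and -0.74 to -0.10. Of 5 endothelial microRNAs, 3 were below 0 and 2, miR-221 at -0.98 and miR-222 at -0.58, did not overlap. The groups overlapped for miR-126-3p at -0.0051, miR-126-5p at 0.47 and miR-92a at 0.19. The list mean was -0.10 to 0.10 in Dicer_WT and -0.30 to 0.016 in Dicer_KO aortas. The erythroid miR-451 and miR-486 were above 0, at 1.36 and 1.12, and the list mean was -0.998 to 0.85 in Dicer_WT and 1.00 to 1.65 in Dicer_KO aortas. Of the T and B cell pair, miR-150 was at 0.53 and miR-181a at -0.21, with a list mean of -0.26 to 0.16 in Dicer_WT and 0.094 to 0.20 in Dicer_KO aortas. None of these markers passed the test and none was silent in every aorta, while miR-147 gave no product in Dicer_KO aortas. The part of any cell type in the members' values was not tested.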

How the data were processed

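MicroRNAs of 6 aortas were measured by TaqMan PCR after reverse transcription and preamplification, per the labels' protocols. The authors deposited Ct values per assay and aorta (40 for no product, 5 cells with a decimal comma read as a point), relative quantities as a linear ratio, and their own fold changes. Worked out from the values, log2 of the deposited ratio is the Ct of an assay taken from the mean Ct of that card's reference RNAs in that aorta, with the Dicer_WT mean set to 0 (largest log2 difference 5.22e-06). U6, snoRNA135 and snoRNA202 were the references of the first card (335 microRNA assays), with snoRNA429 added on the second (182). The PCR software and thresholds were not given in the sources used here.

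Wells at Ct 35 or above were set to Ct 35, and the 377 assays with at least 2 detected aortas in either group were tested. The test was limma (3.58.1, R 4.3.3; lmFit and eBayes) on log2 values, two-sided, with p-values adjusted by Benjamini-Hochberg across the 377 assays at a threshold of 0.05. Ratios within an aorta and control RNAs were compared by two-sided exact permutation tests. The fit was tested on simulated data. Detected below Ct 35 were 374 to 378 assays in Dicer_WT and 349 to 366 in Dicer_KO aortas; the number of arrays limits the precision. The labels call the replicates biological, so an aorta was counted as 1 mouse.

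Named assays were the 4 members, other strands of their hairpins and assays holding a member's bases 2 to 7 there or moved by 1 base. Control RNAs, marker lists and the 5 assays most alike in pattern were named too. miR-106a, miR-17, miR-136 and let-7f* were named after their values were seen. The members and lists were chosen with earlier results of these data known. Assay names were matched to RefSeq names by number, unstarred names of the clusters to the 3p arm and starred names to the 5p arm.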

Additional observations from a re-analysis of the deposited data

How the results depend on the processing

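Over 20 alternatives, 0 of the 4 members passed the threshold, with limma's adjusted p between 0.0511 and 1, and miR-23b kept its direction in each. Only the other normalizations could have turned the sign of miR-23b. The settings for Ct cutoff, undetected wells, detection filter, trend and replicate block left the members' log2 fold changes unchanged. Leaving out 1 aorta could not turn it, as the groups of miR-23b did not overlap. Relative to U87 and Y1, the log2 fold changes turned to 0.080 for miR-24, 0.0515 for miR-27a, 0.013 for miR-27b, 0.0042 for miR-24-2* and 0.054 for miR-27b*; after quantile normalization miR-24 was at 0 and miR-27a at 0.056. miR-27a* was at 0.70 relative to U87 and Y1, 0.49 after quantile normalization, 0.27 with all 6 control RNAs, 0.25 with mean centring, -0.13 without normalization and -0.19 relative to U6 alone, and ranged from -0.035 to 0.16 with 1 aorta left out. The members' median moved to -0.11 (mean centring), 0.032 (U87 and Y1) and -0.051 (quantile). The counts of assays called lower and higher were 4 and 1 after quantile normalization, 24 and 2 at a Ct cutoff of 32, 20 and 2 over assays detected in all 6 aortas, 13 and 0 with Ct 40 taken as measured, 7 and 1 with mean centring and 7 and 2 relative to U87 and Y1; with 1 aorta left out they ranged from 5 to 55 and from 0 to 9. The cause was not tested. With 1 aorta left out the log2 fold change ranged from -0.78 to -0.49 for miR-23b, -0.61 to -0.31 for miR-24, -0.62 to -0.38 for miR-27a, -0.65 to -0.41 for miR-27b and -0.63 to -0.39 for their median. Deviations of same-numbered aortas correlated at 0.18, -0.10 and 0.15 over 330 assays, and those of differently numbered aortas at -0.26 to 0.18. These few values cannot show whether replicate numbers pair the aortas, and the main fit took no replicate block. With the replicate block the count was 7 lower and 0 higher, and the members' adjusted p-values were 0.117 to 0.158.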
